A study of Homo sapiens with 12 samples.

Results

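The genes described here are 10 genes of fatty acid uptake, storage and oxidation in WI-38 cells, an established line of normal lung fibroblasts. They are FABP3, FABP5, ANGPTL4, PLIN2, CPT1A, ACADVL, HADHA, PDK4, PPARG and PPARD, taken by symbol from the 25702 genes of the deposited count table. They were chosen for their role in this pathway with earlier results of the same libraries known, and no one value set the choice, so every difference of theirs given here is a description and no independent test. The cells were grown in low-glucose medium with serum and were left untreated or were treated with 2 ng/mL TGF-β, the cytokine that turns fibroblasts into contractile, matrix-producing myofibroblasts. RNA was taken after 1 day from cells at passages 2 to 3 (D1 and D1+ TGF-β) and after 20 days from cells at passages 5 to 6 (D20 and D20+ TGF-β). The 5 flasks of each D20 condition were seeded on day 1 from 1 untreated or 1 treated flask, medium and TGF-β being renewed through the culture, so that TGF-β and parent flask cannot be told apart at D20, nor can day and passage over the culture. In each condition 3 of 5 flasks were sequenced, chosen by RNA amount and quality, and n = 3 flasks throughout. All 4 conditions are 1 cell line without any genetic change, and p-values measure the spread between these flasks only.

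Fatty acids that enter a cell are carried in the cytosol by fatty acid binding proteins, are activated to acyl-CoA, and are then either esterified and kept in lipid droplets or passed through the carnitine shuttle into mitochondria, where β-oxidation shortens them. Peroxisome proliferator-activated receptors (PPARs) are nuclear receptors that bind fatty acids and, paired with a retinoid X receptor, switch on genes of each of these steps, with PLIN2, CPT1A, PDK4 and ANGPTL4 among their well-known targets. In the lung, lipid-holding fibroblasts are known for high PPARγ and perilipin 2, and are known to lose their lipid droplets when they turn into myofibroblasts.

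The promoters of 5 of the genes are shown because levels of PPARG and PLIN2 were the most alike of the set, CPT1A was lower with TGF-β on both days, ANGPTL4 had opposite responses on the 2 days, and FABP3 had the largest fold change among the 8 genes that passed the filter for the tests. Each run is the 250 bases before the transcription start in RefSeq, read 5′ to 3′ on the gene's own strand and matched base for base to GRCh37, for the start nearest to that of the main GENCODE transcript. These starts are the same for all windows but that of CPT1A, whose RefSeq start lies 2361 bases upstream of the main GENCODE one, so that its window is not the promoter of that transcript. The windows are chr3:12330319-12330568 (plus strand) for PPARG, chr9:19127491-19127740 (minus strand) for PLIN2, chr11:68611746-68611995 (minus strand) for CPT1A, chr19:8428789-8429038 (plus strand) for ANGPTL4 and chr1:31845924-31846173 (minus strand) for FABP3. Capitals mark AGGTCA, the repeat unit that nuclear receptors bind, and CAGAC, a core that SMAD proteins bind, each searched on both strands, so that a match on the other strand reads TGACCT or GTCTG.
PPARG: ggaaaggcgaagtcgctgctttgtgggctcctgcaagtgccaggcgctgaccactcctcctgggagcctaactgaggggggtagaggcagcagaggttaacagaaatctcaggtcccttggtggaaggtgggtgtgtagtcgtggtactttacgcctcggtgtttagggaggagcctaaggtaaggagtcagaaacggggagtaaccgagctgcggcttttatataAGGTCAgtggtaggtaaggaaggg
PLIN2: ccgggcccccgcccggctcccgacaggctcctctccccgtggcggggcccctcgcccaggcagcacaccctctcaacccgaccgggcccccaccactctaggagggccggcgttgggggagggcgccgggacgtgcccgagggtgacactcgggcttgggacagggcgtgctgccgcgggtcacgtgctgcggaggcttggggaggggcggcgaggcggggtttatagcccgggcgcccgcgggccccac
CPT1A: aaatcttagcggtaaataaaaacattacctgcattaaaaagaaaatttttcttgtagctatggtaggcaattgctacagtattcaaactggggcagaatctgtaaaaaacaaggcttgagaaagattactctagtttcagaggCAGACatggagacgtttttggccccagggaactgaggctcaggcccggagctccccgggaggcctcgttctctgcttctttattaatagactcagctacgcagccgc
ANGPTL4: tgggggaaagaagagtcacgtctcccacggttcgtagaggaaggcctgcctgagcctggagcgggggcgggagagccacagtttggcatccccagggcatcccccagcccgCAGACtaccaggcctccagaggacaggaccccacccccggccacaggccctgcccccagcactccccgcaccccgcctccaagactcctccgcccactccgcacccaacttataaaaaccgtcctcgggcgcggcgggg
FABP3: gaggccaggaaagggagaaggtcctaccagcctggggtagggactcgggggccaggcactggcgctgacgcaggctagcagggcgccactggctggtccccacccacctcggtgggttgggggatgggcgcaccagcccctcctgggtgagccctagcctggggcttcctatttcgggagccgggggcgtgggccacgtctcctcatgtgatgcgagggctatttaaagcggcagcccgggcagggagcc

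AGGTCA was present in the window of PPARG and in none of the other 8 windows, and 12.1% of 35116 RefSeq promoters of the same length held it. CAGAC was present in the windows of ANGPTL4 and CPT1A, the latter the one that lies upstream, 2 of 9, against 38% of all promoters. Only the nearest window of each gene is counted here, whereas the shares over all promoters take every RefSeq start. Further RefSeq starts of PPARG at 12328867, 12343266 and 12343474 have windows with CAGAC, and the first also holds AGGTCA. The remaining starts of PPARG and the further start of ACADVL have windows without CAGAC. The full PPAR response element of the DR1 type, a direct repeat with 1 base between the repeats and searched with 1 open position in each repeat, was in 0 of 9 windows and in 0.268% of all promoters. A match is a run of letters and not a site of binding, and FABP5 had no window in the table used.

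Library totals ranged from 8674488 to 18286197 counts over the 12 libraries, each the sum of 4 sequencing lanes. The test took the 9490 of 20434 genes with any count that reached 10 cpm (counts scaled to libraries of equal size) in 6 or more of the 12 libraries. This filter used cpm before TMM correction, and the cpm levels given below are after it. Differences were fitted by edgeR's quasi-likelihood test over all 12 libraries with Benjamini-Hochberg adjustment over all genes tested, a gene being called at an adjusted p under 0.01, and each p below is that adjusted p. All 9 fibroblast markers, such as COL1A1 and PDGFRB, passed the filter, whereas 0 of 6 adipocyte markers did, and 2 of these had 0 counts in every library. The 4 endothelial markers summed to at most 2.63 cpm. Sums of the 6 adipocyte markers were 6.44 to 12.3 cpm at D1, 5.69 to 6.69 at D1+ TGF-β, 8.63 to 10.4 at D20 and 3.29 to 4.11 cpm at D20+ TGF-β. Of the epithelial markers 3 passed the filter, of the leukocyte markers 1, and 2 in each list had at most 3 counts in every library. Sums of the 6 epithelial markers were 39.2 to 60.9, 58.4 to 60.3, 62.2 to 64.4 and 37.2 to 50.5 cpm in the same order. Those of the 4 leukocyte markers were 51.2 to 62.8, 39.8 to 41.4, 53.7 to 59.9 and 38.6 to 48.3 cpm. All 3 sums were thus lower with TGF-β at D20 without overlap, that of the leukocyte markers also at D1, as were genes described here, and their part in those results was not tested. ACTA2, which encodes the smooth muscle actin of myofibroblasts, lay between 692 and 850 cpm at D1+ TGF-β against 125 to 229 cpm at D1, and between 285 and 357 cpm at D20+ TGF-β against 277 to 297 cpm at D20. The 5 myofibroblast markers together were higher with TGF-β on both days without overlap, with sums of 3020 to 3374 cpm against 993 to 1666 cpm at D1 and 3644 to 4479 cpm against 1671 to 1721 cpm at D20. Of the D20+ TGF-β flasks, replicate 3 stood apart with 110 cpm of the proliferation marker MKI67 against 54.1 and 53.6 cpm, and at D1 replicate 2 stood apart with 245 cpm against 167 and 169 cpm. Where a call on one of the 10 genes changed without either flask, both values are given.

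Of the 10 genes, 8 passed the filter, and PDK4 and ANGPTL4 did not. Compared per kilobase of the main transcript, so that levels of different genes can be set side by side, HADHA was highest at D1 with 108 cpm per kb, followed by PLIN2 with 93.1 and ACADVL with 87.5 cpm per kb. PLIN2 and ACADVL did not differ beyond their spread over flasks. PPARG (42.3) and FABP5 (42.0 cpm per kb) came next and did not differ beyond their spread either, nor did FABP3 (23.2) and CPT1A (23.1 cpm per kb). PPARD had 16.2, ANGPTL4 4.50 and PDK4 0.901 cpm per kb, the last resting on 1 flask. At D20+ TGF-β, HADHA was still highest with 86.0 cpm per kb and ACADVL followed with 63.5, but FABP3 came next with 56.1 and PPARG, with 13.6 cpm per kb, came after PPARD with 15.2 cpm per kb. Flasks of ACADVL and FABP3 overlapped there on this scale, as did those of PPARD and PPARG. In the plot of levels by flask each gene has its own scale.

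**Figure D1:**
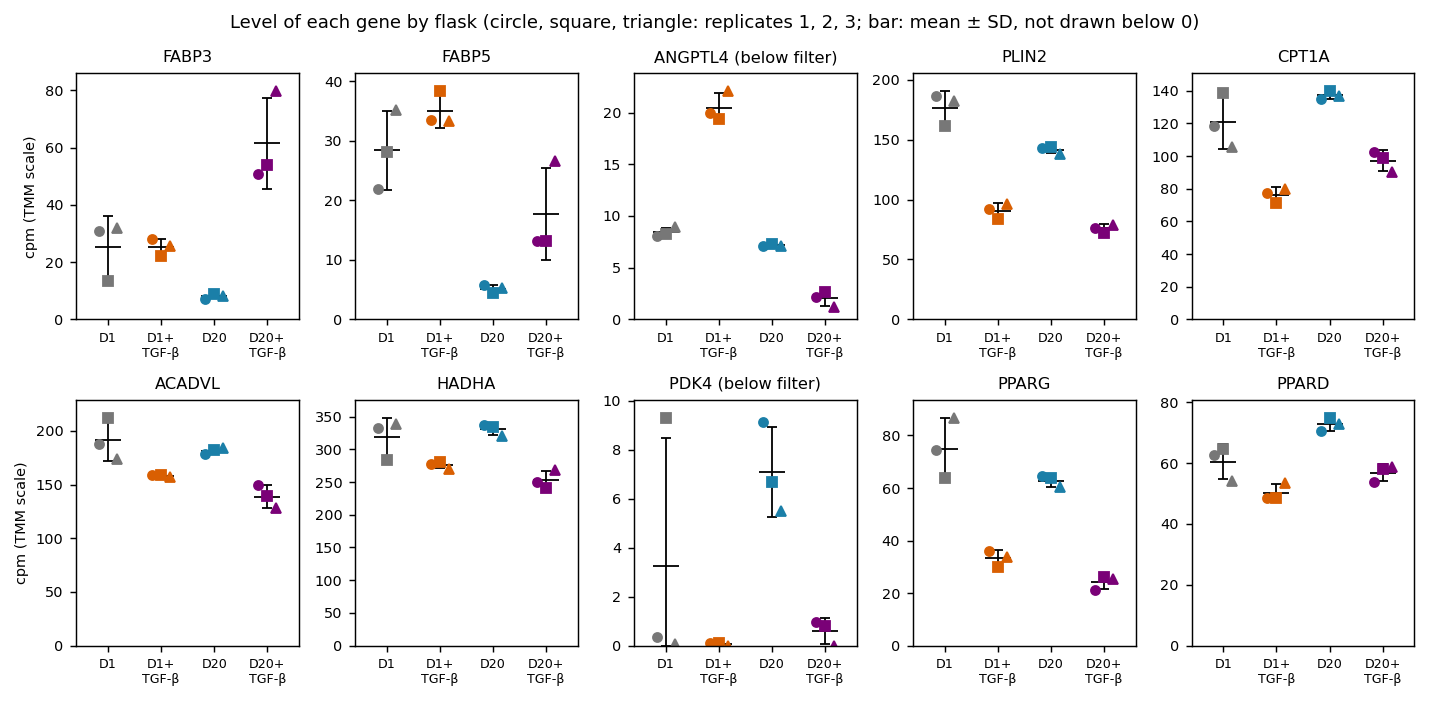
Level of each of the 10 genes in cpm on the TMM scale (vertical axis, from 0) in the 12 flasks, by condition (horizontal axis), with replicates 1, 2 and 3 as circle, square and triangle and the bar as mean ± SD of 3 flasks. FABP3 runs from 7.27 cpm in a D20 flask to 79.6 cpm in a D20+ TGF-β flask, PLIN2 and PPARG are lower in all TGF-β flasks, and PDK4 at D1 rests on replicate 2.

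The D1+ TGF-β vs D1 and D20+ TGF-β vs D20 comparisons ask what TGF-β did after 1 and after 20 days. At D1, 3 of the 8 tested genes were called, all lower (PPARG, PLIN2 and CPT1A), beside 13.4% of all 9490 genes called in either direction and 6.50% called lower. Their median log2 fold change was −0.27 against −0.017 over all genes, and in 6 of the 8 the flasks did not overlap, all lower, as in 36.4% of all genes (18.8% lower). At D20 all 8 were called, FABP3 and FABP5 higher and 6 lower, beside 27.5% of all genes (12.8% higher, 14.7% lower), with a median log2 fold change of −0.39 against 0.009 over all genes. Flasks did not overlap for any of the 8, as for 58.3% of all genes. Nothing is read from these counts, since the genes were picked with results known.

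**Figure D2:**
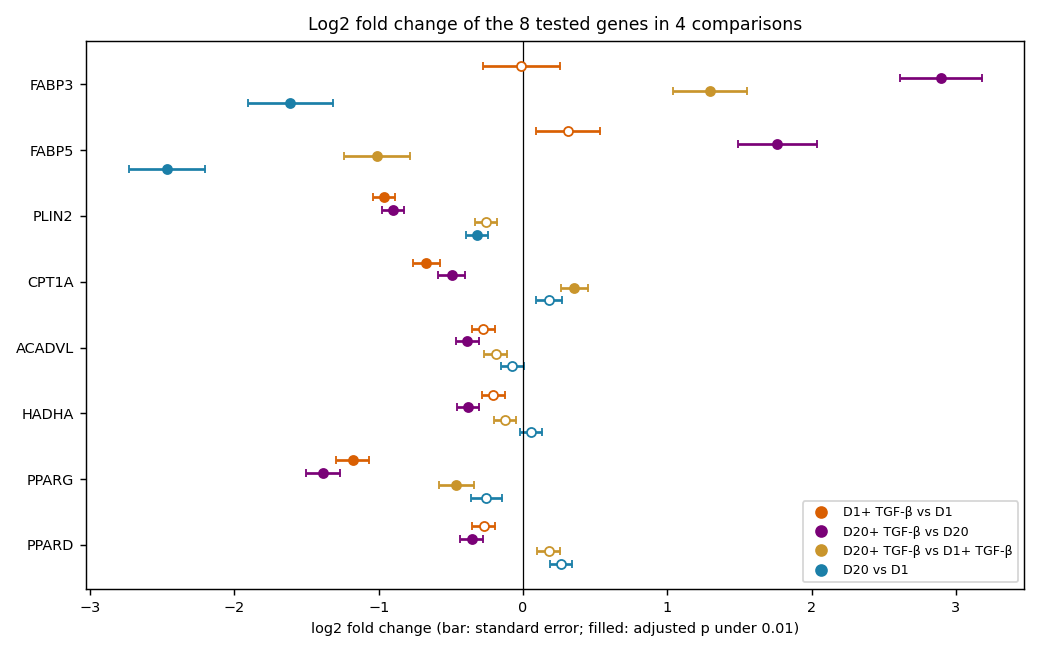
Log2 fold change (horizontal axis, bars as standard error) of the 8 tested genes in the 4 comparisons, from 1 edgeR fit to 12 libraries with 3 flasks per condition, filled where the adjusted p was under 0.01. FABP3 and FABP5 stand to the right in D20+ TGF-β vs D20 (2.90 and 1.76) and to the left in D20 vs D1 (−1.61 and −2.47), while the other 6 lie between −1.39 and 0.35 throughout.

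The fatty acid carriers were the genes that were higher with TGF-β at D20. FABP3 (chr1:31838100-31849697, minus strand, GRCh37), the heart-type fatty acid binding protein, had 30.9, 13.3 and 32.1 cpm in the D1 flasks and 28.0, 22.1 and 25.5 cpm at D1+ TGF-β. At D20 it had 7.27, 9.03 and 8.26 cpm, and at D20+ TGF-β 50.9, 53.9 and 79.6 cpm. The 3 D20 flasks were thus the lowest of all 12 and the 3 D20+ TGF-β flasks the highest, while the D1 and D1+ TGF-β flasks overlapped. FABP3 was 7.44-fold higher at D20+ TGF-β than at D20 (log2 fold change 2.90, SE 0.28, adjusted p = 4.19e-06). At D1 the log2 fold change with TGF-β was −0.01 (SE 0.27, adjusted p = 0.981), a value whose sign changed with the method. The difference of the responses on the 2 days was 2.91 (SE 0.39, adjusted p = 2.40e-04), which made FABP3 the 1 of 8 tested genes called in it, beside 10.4% of all genes (4.51% higher). Without D1 replicate 2, the lowest D1 flask, the difference was 3.23, and without D20+ TGF-β replicate 3 it was 2.68.

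FABP5 (chromosome 8, plus strand), the epidermal-type carrier, had 21.9, 28.0 and 35.2 cpm at D1 and 33.4, 38.3 and 33.3 cpm at D1+ TGF-β. It had 5.72, 4.48 and 5.26 cpm at D20 and 13.2, 13.2 and 26.6 cpm at D20+ TGF-β. The D20 flasks were again the lowest of all 12, and replicate 3 of D20+ TGF-β lay well above the other 2. FABP5 was 3.39-fold higher at D20+ TGF-β than at D20 (log2 fold change 1.76, SE 0.27, adjusted p = 2.04e-04), and 1.38 on the log2 scale without that replicate (adjusted p = 9.71e-05). At D1 its log2 fold change was 0.31 (SE 0.22, adjusted p = 0.334). The difference of the responses, 1.45 (SE 0.35, adjusted p = 0.0107), just missed the threshold, and without D20+ TGF-β replicate 3 it was 1.05 and was called (adjusted p = 0.00646). The sums of the 6 cell cycle markers were also lowest at D20 and higher at D20+ TGF-β, with 662 to 1052 cpm at D1, 730 to 819 at D1+ TGF-β, 110 to 136 at D20 and 248 to 417 cpm at D20+ TGF-β, and their part in the result was not tested. FABP5 overlaps the long non-coding RNA gene LNMICC on the opposite strand and has processed pseudogene copies, with which its reads could be shared.

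ANGPTL4 (chr19:8428173-8439254, plus strand), a secreted inhibitor of lipoprotein lipase, was too low for the filter but was the gene with opposite responses on the 2 days. It had 94, 124 and 105 counts at D1 (8.08, 8.24 and 8.94 cpm) and 169, 342 and 186 counts at D1+ TGF-β (20.0, 19.4 and 22.0 cpm). At D20 it had 73, 96 and 116 counts (7.08, 7.29 and 7.10 cpm) and at D20+ TGF-β 38, 26 and 13 counts (2.17, 2.67 and 1.24 cpm). All D1+ TGF-β flasks lay above, and all D20+ TGF-β flasks below, every untreated flask. Over the summed counts it was 2.40-fold higher with TGF-β at D1 (95% exact interval 2.10 to 2.75) and 3.50-fold lower at D20 (2.71 to 4.57), intervals that cover counting error only. Under edgeR's looser filter (filterByExpr, 13768 genes tested) the log2 fold changes were 1.28 at D1 (SE 0.14, adjusted p = 2.07e-05) and −1.81 at D20 (SE 0.18, adjusted p = 3.79e-06), where 10.9 and 24.4% of all genes were called. Their difference was −3.09 (SE 0.23, adjusted p = 2.06e-06, with 8.04% of all genes called). Lipoprotein lipase itself, LPL, was singled out after its values were seen and had 0 counts in all 12 libraries, where a count of 0 allows up to 3 counts per library.

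PLIN2 (chr9:19108373-19149288, minus strand) encodes perilipin 2, the protein that coats lipid droplets in most cells. It had 187, 161 and 182 cpm at D1 and 92.0, 84.0 and 96.2 cpm at D1+ TGF-β. At D20 it had 143, 144 and 138 cpm, against 76.4, 72.2 and 79.2 cpm at D20+ TGF-β. The 6 flasks with TGF-β were all below the 6 without it. PLIN2 was 1.95-fold lower with TGF-β at D1 (log2 fold change −0.96, SE 0.08, adjusted p = 1.25e-06) and 1.86-fold lower at D20 (−0.90, SE 0.08, adjusted p = 1.03e-06), and the difference of the responses was 0.07 (SE 0.11, adjusted p = 0.703).

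CPT1A (chr11:68522088-68611878, minus strand), the carnitine palmitoyltransferase of the outer mitochondrial membrane that gates the entry of long-chain fatty acids, followed. It had 119, 139 and 106 cpm at D1 and 77.7, 71.1 and 80.0 cpm at D1+ TGF-β. At D20 it had 135, 140 and 137 cpm, against 103, 99.0 and 90.1 cpm at D20+ TGF-β. Flasks with TGF-β were below those without it on both days. CPT1A was 1.59-fold lower at D1+ TGF-β than at D1 (log2 fold change −0.67, SE 0.09, adjusted p = 1.91e-04) and 1.41-fold lower at D20+ TGF-β than at D20 (−0.50, SE 0.09, adjusted p = 7.87e-04).

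The enzymes of mitochondrial β-oxidation differed less. ACADVL (chr17:7120444-7128585, plus strand), the very long-chain acyl-CoA dehydrogenase of the opening step, had 188, 212 and 174 cpm at D1 and 159, 159 and 157 cpm at D1+ TGF-β. At D20 it had 178, 183 and 184 cpm, against 149, 139 and 128 cpm at D20+ TGF-β. HADHA (chr2:26413504-26467540, minus strand), the α subunit of the trifunctional protein that carries out the later steps on long chains, had 332, 283 and 338 cpm at D1 and 278, 280 and 270 cpm at D1+ TGF-β. At D20 HADHA had 337, 334 and 320 cpm and at D20+ TGF-β 250, 240 and 269 cpm. For both genes, flasks with TGF-β were below those without it on both days, for HADHA at D1 by a narrow margin. At D20 ACADVL was 1.31-fold lower (log2 fold change −0.39, SE 0.08, adjusted p = 0.00164) and HADHA 1.30-fold lower (−0.38, SE 0.08, adjusted p = 0.00132). The call of ACADVL ended without D20+ TGF-β replicate 3 (−0.31, adjusted p = 0.0107) and without either of replicates 2 and 3 of D20 (adjusted p up to 0.0117), and that of HADHA without replicate 2 of D20 or D20+ TGF-β replicate 1 (adjusted p up to 0.0104). At D1 neither was called, with log2 fold changes of −0.27 for ACADVL (adjusted p = 0.0223) and −0.20 for HADHA (adjusted p = 0.0681). HADHA was called lower there without D1 replicate 2 (−0.28, adjusted p = 0.00425), and ACADVL without D1 replicate 3 (−0.33, adjusted p = 0.00821). ACADVL overlaps DLG4 and MIR324, and HADHA overlaps HADHB, on opposite strands, and the use of strand in the counting is not given in the sources used here.

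PDK4 (chr7:95212811-95225828, minus strand), a kinase that inhibits pyruvate dehydrogenase and so spares glucose when fatty acids are burned, was too low for the filter. It had 4, 140 and 1 counts at D1, 1, 2 and 0 counts at D1+ TGF-β, 94, 88 and 90 counts at D20 and 17, 8 and 0 counts at D20+ TGF-β. D1 replicate 2 thus held 140 of the 145 D1 counts, at a level (9.30 cpm) like that of the D20 flasks (9.12, 6.68 and 5.51 cpm), and the other flasks of D1 and D1+ TGF-β were near 0. At D20+ TGF-β PDK4 was 10.3-fold lower than at D20 over the summed counts (95% exact interval 6.83 to 16.2, counting error only), and no flask overlapped. Under the looser filter this log2 fold change was −3.41 (SE 0.98, adjusted p = 0.0131), and without D1 replicate 2 it was −3.39 (SE 0.41, adjusted p = 1.22e-05), so that 1 flask of another condition decided the call in this fit to all libraries. The ratio of D20 to D1 was 1.81 (1.47 to 2.23) with that flask and 31.9 (13.5 to 99.2) without it, again with counting error only. Under the looser filter the log2 fold change of D20 vs D1 was 0.96 (SE 0.73, adjusted p = 0.303) and was not called. Without D1 replicate 2 it was 4.90 (SE 0.61, adjusted p = 1.42e-05) and was called higher. At D1 the ratio with TGF-β was 0.406 without D1 replicate 2 (3 against 5 counts, interval 0.0631 to 2.09), which leaves no direction. The antisense gene PDK4-AS1 overlaps PDK4.

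Of the receptors, PPARG (chr3:12328867-12475855, plus strand), the PPAR known for driving lipid storage, had the larger difference. It had 74.4, 63.8 and 86.7 cpm at D1 and 35.9, 29.9 and 33.9 cpm at D1+ TGF-β. The level at D20 was 64.4, 63.7 and 60.2 cpm, against 21.2, 26.0 and 25.2 cpm at D20+ TGF-β. All 6 flasks with TGF-β lay below all 6 without it. PPARG was 2.26-fold lower at D1+ TGF-β than at D1 (log2 fold change −1.18, SE 0.11, adjusted p = 9.55e-06) and 2.62-fold lower at D20+ TGF-β than at D20 (−1.39, SE 0.12, adjusted p = 1.03e-06), with a difference of responses of −0.21 (SE 0.16, adjusted p = 0.390).

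PPARD (chr6:35310335-35395968, plus strand), the widely expressed PPAR linked to oxidation, had 62.8, 64.6 and 54.1 cpm at D1 and 48.6, 48.6 and 53.6 cpm at D1+ TGF-β. It had 70.4, 74.8 and 72.8 cpm at D20, against 53.8, 58.2 and 58.7 cpm at D20+ TGF-β. Its D20 flasks were the highest of all 12, and the D1 and D1+ TGF-β flasks came close without overlapping. PPARD was 1.28-fold lower with TGF-β at D20 (log2 fold change −0.36, SE 0.08, adjusted p = 0.00244), a call that ended when any of 3 flasks was left out, up to an adjusted p of 0.0250. At D1 its log2 fold change was −0.27 (SE 0.08, adjusted p = 0.0230) and was not called, except without D1 replicate 3 and in 2 other alternatives of 23.

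**Figure D3:**
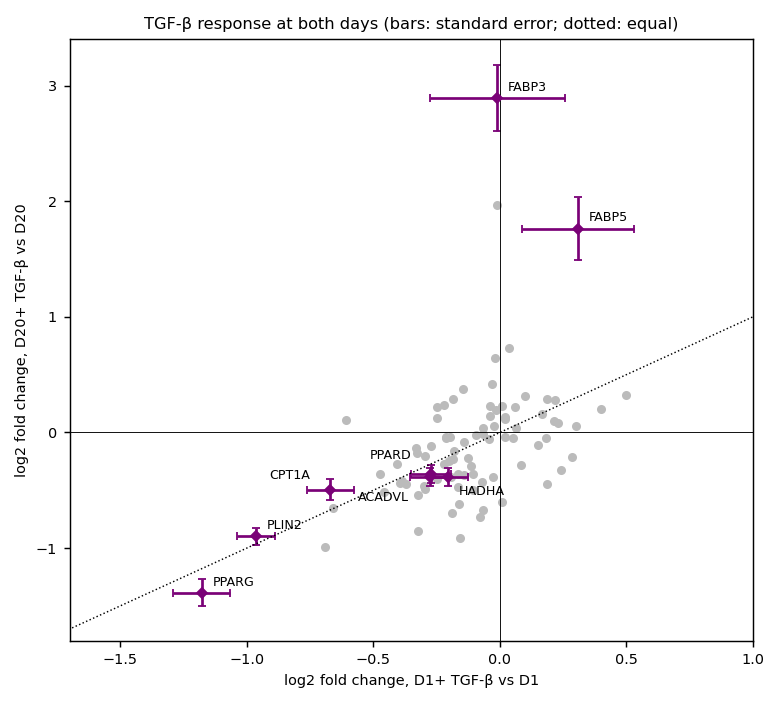
Log2 fold change with TGF-β at D1 (horizontal axis) and at D20 (vertical axis) for the 8 tested genes (diamonds, bars as standard error) and the 81 tested genes of the wider pathway list (grey), with equal responses on the dotted line. FABP3 and FABP5 lie above the line, and the other 6 genes lie near it, with differences between −0.21 and 0.18.

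The D20 vs D1 comparison and that of D20+ TGF-β with D1+ TGF-β ask what changed over the culture. They share flasks with the comparisons above, so their values are set side by side only. Without TGF-β, 3 of 8 tested genes were called, all lower at D20, beside 36.4% of all genes (17.6% lower), and for 4 the flasks did not overlap, as for 55.6% of all genes. FABP5 was 5.52-fold lower at D20 (log2 fold change −2.47, SE 0.26, adjusted p = 5.98e-06) and FABP3 3.06-fold lower (−1.61, SE 0.29, adjusted p = 4.64e-04). PLIN2 was 1.25-fold lower (−0.32, SE 0.07, adjusted p = 0.00278). PPARD was 1.20-fold higher (0.26, SE 0.08, adjusted p = 0.0117), with no overlap of flasks, but was not called. Leaving out D1 replicate 2 raised the number called to 6, CPT1A at 0.28 (adjusted p = 0.00660), PPARG at −0.37 (adjusted p = 0.00587) and PPARD at 0.31 (adjusted p = 0.00469) being added. ACADVL (−0.08) and HADHA (0.05) had values near 0 whose sign changed without that flask.

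With TGF-β, 4 of 8 tested genes were called, beside 34.8% of all genes (17.2% higher, 17.7% lower). Flasks did not overlap for any of the 8, as for 63.2% of all genes. FABP3 was 2.45-fold higher at D20+ TGF-β than at D1+ TGF-β (log2 fold change 1.29, SE 0.26, adjusted p = 0.00105) and CPT1A 1.28-fold higher (0.35, SE 0.09, adjusted p = 0.00675), CPT1A losing its call in 10 of 23 alternatives. FABP5 was 2.02-fold lower (−1.01, SE 0.23, adjusted p = 0.00271) and PPARG 1.38-fold lower (−0.46, SE 0.12, adjusted p = 0.00620). FABP5 lost its call without D1+ TGF-β replicate 2 or D20+ TGF-β replicate 1 or 2 (adjusted p up to 0.0171), and its log2 fold change was −1.44 without D20+ TGF-β replicate 3 (adjusted p = 1.25e-05). PPARG lost its call without D1+ TGF-β replicate 1 or 3 or D20+ TGF-β replicate 1 (adjusted p up to 0.0322). Of the carriers, FABP3 was thus above and FABP5 below its earlier level with TGF-β. PLIN2 (−0.25, adjusted p = 0.0138), ACADVL (−0.19, adjusted p = 0.0659) and HADHA (−0.12, adjusted p = 0.193) were lower, and PPARD (0.18, adjusted p = 0.0767) was higher, in all 3 late flasks than in any early one, without a call. PLIN2 was called in 7 of 23 alternatives, among them those without D1 replicate 2 (−0.26, adjusted p = 0.00376) and without D20+ TGF-β replicate 3 (−0.30, adjusted p = 0.00978). ANGPTL4 was 9.88-fold lower at D20+ TGF-β than at D1+ TGF-β over the summed counts (95% exact interval 7.80 to 12.7), and under the looser filter its log2 fold change was −3.36 (SE 0.17, adjusted p = 2.48e-08, with 30.5% of all genes called).

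The genes whose levels were most alike over the 12 libraries were looked up among all 9490 tested genes by Pearson's r of log2 cpm, as a description, since the points share conditions and flasks. For FABP3 they were MID1IP1 (r = 0.980) and FASN (r = 0.977), the latter the fatty acid synthase. FABP5 was most like DBF4 (r = 0.989) and KIAA0101 (r = 0.988), both known from DNA replication. PLIN2 was most like FAH and PPARG (both r = 0.981), and PPARG in turn most like PLIN2 and then GYG1 (r = 0.974). CPT1A followed CABLES1 (r = 0.985) and PITX1 (r = 0.983), and PPARD followed C10orf76 (r = 0.978) and SLC35F6 (r = 0.973). For ACADVL the nearest were RANGAP1 (r = 0.947) and NID2 (r = 0.945), and for HADHA TFE3 (r = 0.954) and RNF181 (r = 0.946). Between members, FABP5 and PPARD ran most strongly in opposite directions (r = −0.83).

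A wider list of 114 other genes of the pathway gives the setting. It was written from their textbook roles, but with earlier results of these data known, so its counts are descriptions too. Of these, 81 passed the filter and 7 had at most 3 counts in every library. With TGF-β at D1, 9 of 81 were called (3 higher, 6 lower), beside 13.4% of all genes, and at D20 32 of 81 (7 higher, 25 lower), beside 27.5% called, 14.7% lower. The median log2 fold changes were −0.11 at both days, against −0.017 and 0.009 over all genes.

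Around CPT1A, ACADVL and HADHA, most tested genes of the carnitine shuttle and of mitochondrial β-oxidation were called with TGF-β at D20, nearly all lower. Over all genes 27.5% were called there, 14.7% lower. In the carnitine shuttle 4 of 5 tested genes were called, all lower, with a median of −0.54, among them SLC25A20, the carnitine-acylcarnitine carrier of the inner membrane (log2 fold change −0.74, adjusted p = 2.07e-04), and CROT, which makes carnitine esters in peroxisomes (−0.62, adjusted p = 0.00268). In mitochondrial β-oxidation 9 of 15 were called, 8 lower and 1 higher, with a median of −0.36. ETFB (−0.85, adjusted p = 3.84e-06) and ETFDH (−0.67, adjusted p = 2.85e-05), which hand electrons from the dehydrogenases to the respiratory chain, were the largest. In peroxisomal oxidation 4 of 10 were called, all lower, such as the thiolase ACAA1 (−0.46) and the transporter ABCD3 (−0.44).

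Storage and release of lipid moved in both directions. The counts per role at D20 stand beside 27.5% of all genes called (12.8% higher, 14.7% lower). Of 11 tested storage genes 6 were called at D20, 4 lower and 2 higher, with PLIN3, another droplet coat protein, lower like PLIN2 (−0.70, adjusted p = 1.70e-05) and LPIN1, a phosphatidate phosphatase, higher (0.73, adjusted p = 0.00787), LPIN1 losing its call in 10 of 23 alternatives. Among 5 lipolysis genes the lipase PNPLA2 was lower (−0.44, adjusted p = 7.56e-04) and its inhibitor G0S2 higher (1.97, adjusted p = 0.00272). G0S2 was also 5.44-fold lower at D20 than at D1 (−2.44, adjusted p = 3.32e-04), so that it was low at D20 and higher with TGF-β there, as FABP3 and FABP5 were. Its call with TGF-β at D20 ended without D20+ TGF-β replicate 1 (1.41, adjusted p = 0.0210), D20 replicate 1 (adjusted p = 0.0107) or D20 replicate 2 (adjusted p = 0.0140). Of the genes around PDK4, 3 of 7 were called at D20, among them PDK1, a kinase with the same target (−0.99, adjusted p = 2.36e-04), and PDP2, a phosphatase that opposes it (0.65, adjusted p = 3.93e-05). Of 10 receptors and coregulators MED1 alone was called at D20 (0.31, adjusted p = 0.00153). In uptake and binding 2 of 5 were called, CAV1 of caveolae lower (−0.91, adjusted p = 8.43e-04) and the acyl-CoA binding protein DBI higher (0.38, adjusted p = 0.00303), in activation 1 of 9, the thioesterase ACOT7 (−0.43), and in the control of malonyl-CoA 0 of 4.

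At D1 no shuttle gene of the list was called (0 of 5, median −0.25). Of 15 β-oxidation genes 1 was, ECI2 (−0.47, adjusted p = 0.00259), beside 13.4% of all genes called. The other calls were ACBD3 (0.29), ABHD5 (0.50), PNPLA2 (−0.39), PHYH (−0.61), PDK1 (−0.69), PDP1 (0.40) and AGPAT2 (−0.40), and PDK2, which is outside the naming rule (−0.37). Of the named calls, PHYH kept its call under all 23 alternatives, whereas PDP1 lost it in 9, ACBD3 in 8, AGPAT2 in 6, ABHD5 and PNPLA2 in 5 each, and ECI2 and PDK1 in 4 each. The difference of the responses was called for 11 of 81 genes, 4 higher and 7 lower, beside 10.4% of all genes. Over the culture, 29 of 81 genes (35.8%) were called in D20 vs D1 (17 higher, 12 lower), beside 36.4% of all genes. With TGF-β at both times 31 of 81 (38.3%) were called (14 higher, 17 lower), beside 34.8% of all genes. In D20 vs D1, without a composition factor, the split was 10 higher and 20 lower, so no direction is given for the list. In D20 vs D1 CROT was 2.17-fold higher (1.12, adjusted p = 2.10e-05) and CPT2 1.53-fold higher (0.62, adjusted p = 0.00166). Lower there were PPRC1 (−0.73, adjusted p = 1.93e-05), ABHD5 (−0.62, adjusted p = 2.79e-04) and SLC27A4 (−0.60, adjusted p = 2.16e-04), among others. With TGF-β at both times CPT1C was 1.74-fold higher (0.80, adjusted p = 2.77e-05), while PDK1 (−0.93, adjusted p = 3.24e-04) and ABHD5 (−0.80, adjusted p = 4.77e-05) were lower. CROT, lower with TGF-β at D20, was higher at D20+ TGF-β than at D1+ TGF-β (0.66, adjusted p = 0.00179). Of 5 tested shuttle genes 3 were called in that comparison, 2 higher and 1 lower.

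**Figure D4:**
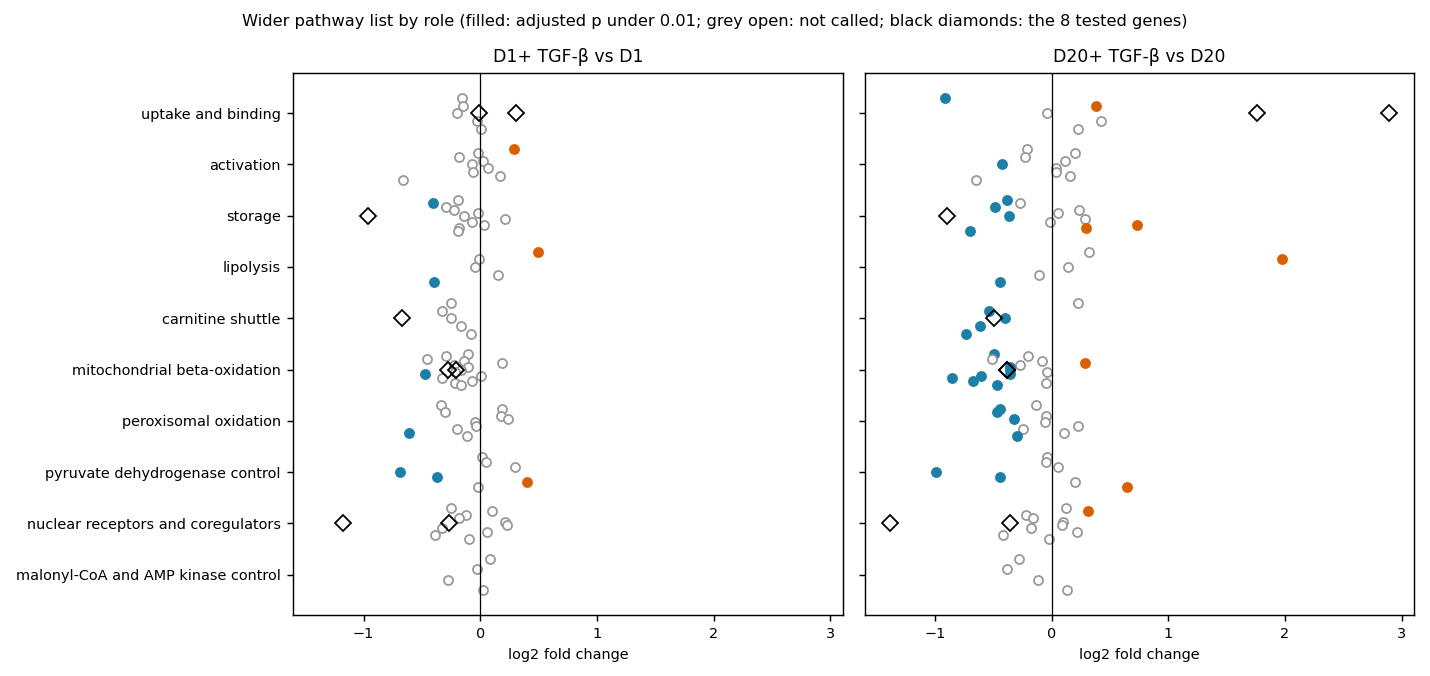
Log2 fold change with TGF-β (horizontal axis) at D1 (left) and D20 (right) of the 81 tested genes of the wider list by role (rows), filled where the adjusted p was under 0.01 (orange higher, blue lower), with the 8 tested genes as black diamonds. In the carnitine shuttle row at D20, 4 of 5 points are filled and lower, against 0 of 5 at D1. Over all genes 27.5% were called at D20 and 13.4% at D1.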

How the data were processed

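RNA of 12 flasks was sequenced in paired ends from directional libraries, each read on 4 lanes. The authors trimmed reads with Trimmomatic, mapped them to hg19 (GRCh37) with Rsubread and deposited unnormalized counts of 25702 genes in each lane. They also deposited log2 cpm from voom for the 9412 genes left by their filter. The counting annotation and its use of strand are not given in the sources used here. Lanes, 48 columns in all with 0 left unassigned, were summed per library. Counts were analysed with edgeR 4.0.16 in R 4.3.3, with TMM factors, a filter of 10 cpm in 6 libraries, 1 mean per condition and Benjamini-Hochberg adjustment in each of 5 comparisons over 9490 genes, 54 of them without a name. Standard errors were obtained by dividing the absolute log2 fold change by the square root of its F. The common coefficient of variation was 9.35%. An exact permutation test of 3 against 3 flasks cannot go below p = 0.1 and was not used.

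The members and lists were chosen with earlier results of these data known. The genes named are the members and the 2 genes most like each member (log2 cpm, prior count 2). From the wider list they were taken among the 2 called genes with the largest change per role and comparison, and not all of these are printed. PDK4 and ANGPTL4, below the filter, are given as counts with exact 95% intervals of their ratio, which cover counting error only, and under filterByExpr. Alternatives were DESeq2 1.42.0, limma 3.58.1 (voom on libraries or lanes, or the deposited log2 values), RLE factors, no composition factor, other filters, the 6 libraries of a comparison, a replicate block and leaving out each library. Leaving out D1 replicate 2 and D20+ TGF-β replicate 3 together, and filterByExpr without D1 replicate 2, were added after seeing the data. Code was tested on simulated data. Coordinates are of GRCh37 (GENCODE), and 9 of 10 members had a RefSeq promoter.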

Additional observations from a re-analysis of the deposited data

Results flagged for a closer look

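Results were flagged where the responses to TGF-β at D20 and at D1 differed, as a log2 fold change at D20 minus that at D1. Of the 10 genes this was FABP3 at 2.91 (SE 0.39, adjusted p = 2.40e-04 in edgeR's quasi-likelihood test, 3 flasks per condition), with no response called at D1 and higher levels in 3 of 3 flasks at D20. ANGPTL4 was flagged because all flasks moved one way at D1 and the opposite way at D20, with a difference of −3.10 in the log2 ratios of mean cpm. This difference was not tested at the main filter, and under filterByExpr it was −3.09 (adjusted p = 2.06e-06).

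In the wider pathway list 11 of 81 tested genes were called in the difference (4 higher, 7 lower), beside 10.4% of all genes, and at most 2 per role were flagged. These were PHYH (0.72), PDP2 (0.67), DBI (0.52) and LPIN2 (0.48), and on the lower side ABCD3 (−0.63), ETFA (−0.61), ETFDH (−0.61), PLIN3 (−0.51) and ACBD3 (−0.50). In mitochondrial β-oxidation 3 genes were called, all lower, so that not all are named. DBI and PLIN3 each lost this call in 12 of 22 alternatives, ETFDH in 5 and ACBD3 in 1. ACOX3 (−0.56) and CPT1C (0.46) were flagged because their flasks moved in opposite directions on the 2 days, both values being differences in log2 ratios of mean cpm. In edgeR's test of the difference the adjusted p was 0.00309 for ACOX3, which was thus called too, and 0.0251 for CPT1C, which was not called.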

How the results depend on the processing

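At this depth no direction with TGF-β at D1 was detectable for PDK4 without D1 replicate 2 (3 against 5 counts). Of 912 values of the 8 tested genes under the alternatives, 829 kept direction and side of the threshold, 25 lost the call, 40 gained it and 18 changed sign. Of 1532 values of named genes of the wider list, 1391 kept both, 141 lost the call and 0 changed sign. These genes were taken for their call and large change in the main fit, so no call could be gained and a change of sign was unlikely from the start. In D20+ TGF-β vs D20, FABP3, FABP5, PLIN2, CPT1A and PPARG were called under all 23 alternatives. The cause of the changes was not tested.

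The members called numbered 3 in D1+ TGF-β vs D1, and 7 with lanes as samples, 5 without a composition factor, 5 without a gene filter and 3 to 5 with libraries left out (5 without D1 replicate 3). In D20+ TGF-β vs D20 they numbered 8, and 5 to 8 with libraries left out (5 without D20 replicate 2). With TGF-β over time (D20+ against D1+) they numbered 4, with lanes 8, and 1 to 5 with libraries left out (1 without D20+ TGF-β replicate 1, 2 without D20+ TGF-β replicate 2, D1+ TGF-β replicate 1 or D1+ TGF-β replicate 3). In D20 vs D1 they numbered 3, with lanes 6, and 2 to 6 with libraries left out (6 without D1 replicate 2). For the difference of responses they numbered 1, and 2 with DESeq2, no composition factor, filterByExpr or the replicate block, 3 with lanes or no gene filter, and 1 to 2 with libraries left out (2 without any one D20+ TGF-β replicate or D1 replicate 1). Fits with looser filters hold all 10 members.

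The wider list had 9 calls in D1+ TGF-β vs D1, and 40 with lanes, 14 without a gene filter, 2 in the 6 libraries alone and 2 to 25 with libraries left out (16 without D1 replicate 2, 25 without it and D20+ TGF-β replicate 3, 2 or 3 without D1 replicate 1 or any D1+ TGF-β replicate). The 32 calls in D20+ TGF-β vs D20 became 53 with lanes and 20 to 36 with libraries left out (21 without D20 replicate 1, 20 without replicate 2). The 31 with TGF-β over time became 56 with lanes and 15 to 39 with libraries left out (under 21 without D1+ TGF-β or D20+ TGF-β replicates 1 or 2). The 29 in D20 vs D1 became 57 with lanes and 16 to 42 with libraries left out (18 without D20 replicate 2, 16 without replicate 3). The 11 in the difference became 31 with lanes and 5 to 17 with libraries left out (17 without both libraries named, 7 without any D20 replicate, D20+ TGF-β replicate 1 or D1+ TGF-β replicates 1 or 3, 5 without D1+ TGF-β replicate 2). Without a composition factor the higher and lower calls were 1 and 10 at D1 (3 and 6 with it), 15 and 13 with TGF-β over time (14 and 17), 10 and 20 in D20 vs D1 (17 and 12) and 6 and 5 in the difference (4 and 7).

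The log2 fold change of FABP3 at D1, −0.01, was 0.0996 with limma-voom, 0.109 with lanes, 0.0926 on the deposited log2 values, 0.00738 in the 6 libraries and 0.0440 with the replicate block, and −0.35 to 0.20 with libraries left out. HADHA in D20 vs D1, 0.05, was −0.0149 without a composition factor, −0.0219 without a gene filter, and −0.0423 to 0.101 with libraries left out (−0.0287 without D1 replicate 2, −0.0423 without it and D20+ TGF-β replicate 3). ACADVL in D20 vs D1, −0.08, was 7.00e-05 without D1 replicate 2 (range −0.14 to 7.00e-05 with libraries left out), and the difference of responses of PPARD, −0.08, was 0.0232 without a composition factor.

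Replicate numbers in the labels were tried as a block. In 0 of 12 same-numbered pairs did deviations from the condition means correlate above 0.1 (−0.22 to 0.03), and 1 of 12 correlated best with its own number, so the samples share only a number. With the replicate block FABP5 was called in the difference of responses (1.42, adjusted p = 0.00684).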
